A study of Mus musculus with 10 samples.

Results

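Of the 331 mouse genes named Zfp followed by a number that had a probe on the array, 207 were detected in LSK cells, and these 207 are described here. The members were chosen by the deposited detection fractions: a gene counted as detected when 1 of its probes lay above the negative controls, with a deposited fraction above 0.95, on at least 5 of the 10 arrays. The detected probe with the highest mean intensity stood for the gene. LSK cells are bone marrow cells without lineage markers that carry Sca1 and cKit, the compartment of haematopoietic stem cells and multipotent progenitors. They were sorted from 5 control mice and 5 mutant LysM-KI mice, with 1 Illumina array for each mouse; the strain of every mouse is given as LysMCre and the ages span 9 to 16 weeks. LysMCre names a line in which the lysozyme locus Lyz2, active in myeloid cells, drives Cre recombinase. The labels do not name the knocked-in allele, and both groups carry the strain label. Nothing in the labels says how complete Cre activity is in LSK cells.

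Most Zfp genes encode proteins with tandem C2H2 zinc fingers, small folds held by a zinc ion that read DNA bases. Many mouse members also carry a KRAB domain, which recruits the corepressor Trim28 (KAP1) and through it the histone H3K9 methyltransferase Setdb1, heterochromatin proteins and the NuRD complex. KRAB zinc finger genes arose by repeated tandem duplication, lie in clusters and are best known for silencing endogenous retroviruses and protecting imprinted loci. The name is not a single family, however: Zfp36 and Zfp36l1 have CCCH fingers that bind AU-rich elements of messenger RNA and promote its decay. The members' proteins are close in sequence, so a probe may also bind transcripts of a paralog, and what each probe binds was not examined.

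Detection differed between arrays. In control mice 1 to 5 the members detected numbered 184, 175, 172, 143 and 164, and in LysM-KI mice 1 to 5 they numbered 185, 175, 193, 189 and 189. The means were 168 ± 15.5 (SD, n = 5) in control and 186 ± 6.87 (SD, n = 5) in LysM-KI mice, and the groups overlapped, since control 1 lay above LysM-KI 2 and control 2 equalled it. As a share, 81.0% of members were detected on the mean control array and 90.0% on the mean LysM-KI array, beside 87.4% and 92.4% for the 8896 genes with a detected probe. Detection chose the members, so these values are a description. Control 4 had the lowest count, and it was the only undetected array of its group for 23 members (11.1% of members, beside 7.35% of all genes). LysM-KI 2 was the only undetected array of its group for 17 members (8.21%, beside 5.85%). Among the genes named below with a log2 difference over 0.4 in size, 19 shrank by more than 1.5 times or changed sign when 1 array was left out, 12 of them without control 4. Their values without that array are given beside them.

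**Figure D1:**
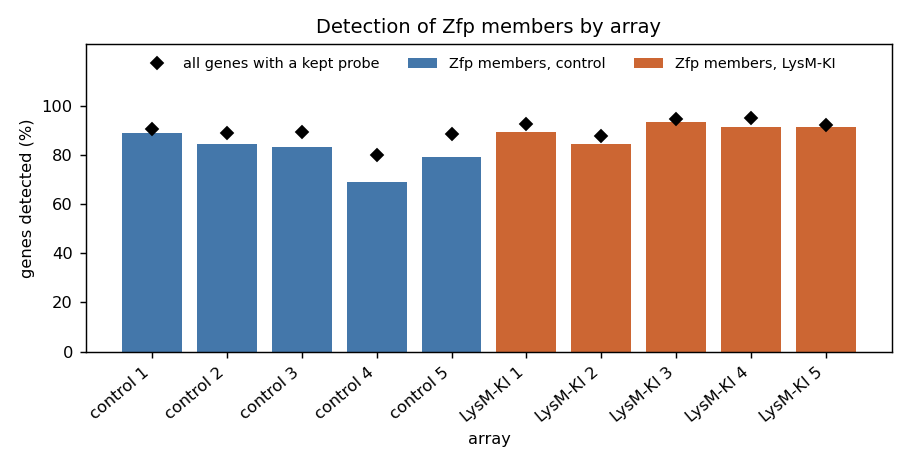
Share of the 207 Zfp members (bars, percent) and of all 8896 genes with a detected probe (diamonds, percent) detected on each array, with control arrays in blue and LysM-KI arrays in orange. Control 4 is lowest, with 143 members detected, and on every array the Zfp share lies below that of all genes.

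Of the members, 98 were detected on all 10 arrays with the probe used, 47.3% beside 62.1% of all genes, and 21 lay just inside the threshold with 5 arrays. Zfp119a, Zfp142, Zfp202 and Zfp280b are examples, with mean normalized levels of 5.65, 5.07, 5.82 and 5.17 on a log2 intensity scale. The 15 genes just outside, with 4 arrays, had mean levels from 5.01 to 5.49 against 5.07 to 5.82 for those inside. Zfp110, Zfp120, Zfp128 and Zfp516 are examples outside, with mean levels of 5.18, 5.28, 5.11 and 5.08. Zfp521, a cofactor known from early haematopoietic progenitors, also lay just outside, with a mean level of 5.33 and detection on 1 control and 3 LysM-KI arrays. A further 46 genes were detected on 0 arrays by any probe.

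The compartment was checked against its markers. Kit, which defines the gate, Cd34, Flt3 and Meis1 were detected on all 10 arrays, as were Cd48, Procr and Hlf. Mecom was detected on 8 arrays and Slamf1 on at most 2, and Sca1 (Ly6a) has no named probe here. Of 5 monocyte and macrophage markers on the array 0 met the detection rule, and of 7 T and NK cell markers 2 did, Cd8a and Nkg7, both on all 10 arrays. Cd3e, Cd3d and Cd3g were detected on at most 1 array. Of 5 megakaryocyte markers 4 met the detection rule, Pf4 and Gp9 on all 10 arrays, Itga2b on 7 and Ppbp on 5. The log2 differences of these 4 were 0.50, -0.04, 0.19 and -0.48. Of 6 neutrophil markers 3 were detected, with a mean level per array of 5.27 to 9.08 in control and 5.25 to 7.81 in LysM-KI mice. The mean level per array of the 2 detected erythroid markers of 5 ranged from 5.49 to 9.56 and from 5.43 to 8.05. That of the 6 B cell markers of 7 ranged from 7.88 to 9.21 and from 8.12 to 8.87. Log2 differences were from -1.19 to -0.50 for the 3 neutrophil and from -0.74 to -0.62 for the 2 erythroid markers. The unadjusted limma p of these markers ran from 0.199 to 0.449. The B cell markers went both ways: the plasma cell genes Mzb1 and Jchain had log2 differences of -1.90 and -0.77, with unadjusted limma p of 8.69e-05 and 0.0153, while Cd79b, Ebf1 and Vpreb1 were at 0.83, 0.59 and 0.47. Pdgfrb and Sparc were the 2 detected of 7 stroma and endothelium markers, each on 4 control and 2 LysM-KI arrays. Their mean level per array ranged from 5.79 to 7.23 in control and from 4.95 to 5.30 in LysM-KI mice. The log2 differences of Pdgfrb and Sparc were -1.04 and -1.40, with unadjusted limma p of 0.00973 and 0.0334. The part of these cells in the results was not tested, and in sorted bulk cells fewer cells of a type and less RNA per cell cannot be told apart. Xist marked control 4 and LysM-KI 4, with levels of 12.26 and 11.92 against at most 6.68 on the other arrays. The 4 X-linked members Zfp275, Zfp182, Zfp449 and Zfp280c had log2 differences of 0.68, 1.00, 0.56 and 0.26, with unadjusted limma p from 0.0996 to 0.571. Zfp182 was at 0.46 without control 4 and Zfp449 at 0.33 without LysM-KI 5.

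The members as a whole were centred where all genes were. Their median log2 difference, LysM-KI minus control, was 0.05, with quartiles of -0.22 and 0.38, and that of the 8896 genes was also 0.05, with quartiles of -0.22 and 0.33. The members' median was -0.02 with cyclic loess and 0.17 with median scaling, so its sign depends on the scaling. A difference above 0 was found for 118 of 207 members (57.0%), beside 55.4% of all genes. The extremes were Zfp553 at -1.36, or -0.88 without control 1, and Zfp868 at 2.17, and 17 members (8.21%) differed by more than 1, beside 5.55% of all genes. At the median the members varied more between mice: their median SD was 0.78 in control and 0.60 in LysM-KI cells, against 0.67 and 0.49 for all genes. Among genes detected on all 10 arrays the median SDs were 0.61 and 0.50 for members, against 0.57 and 0.42 for all. For 50 members (24.2%, beside 37.4% of all genes) the 95% interval of the difference lay wholly within 1 of 0 on the log2 scale. For every other member the interval reaches a 2-fold difference in at least 1 direction, so these arrays do not show that the groups are alike.

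**Figure D2:**
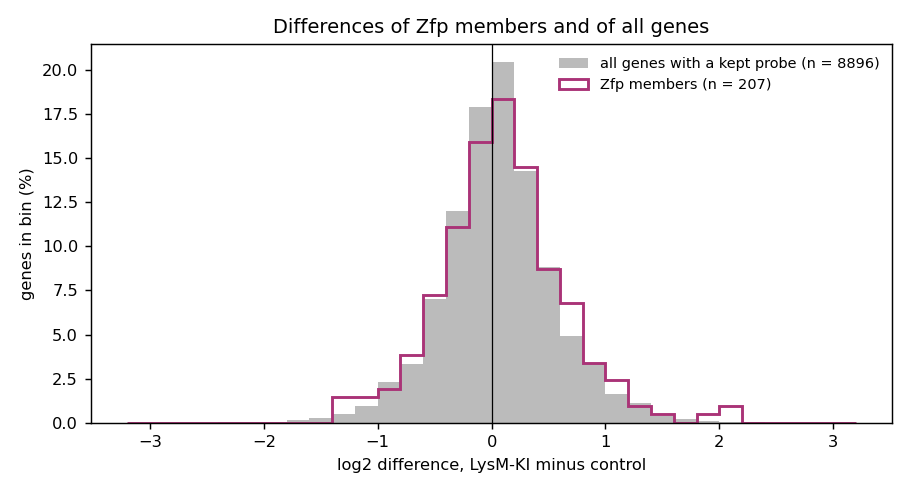
Distribution of the log2 difference, LysM-KI minus control, over the 207 Zfp members (outline) and over all 8896 genes with a detected probe (grey), as the percent of genes in each bin. Both have a median of 0.05, and 8.21% of members against 5.55% of all genes lie beyond 1 in either direction.

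None of the 207 members passed the adjusted threshold. With limma and Benjamini-Hochberg adjustment over 17245 probes, 0 members had an adjusted p under 0.05, beside 0% of all probes. The smallest adjusted p of a member was 0.650. Member counts and p here use only the probe that stands for each gene. Another probe of Zfp672, given below, had a larger difference for its SE (1.73, SE 0.26) than any of these. Limma's unadjusted p was under 0.05 for 14 members (6.76%), beside 5.35% of all probes and 5.04% of all genes. Of these, 8 were higher in LysM-KI cells, where 3.24% of all genes were, and 6 were lower, where 1.8% of all genes were. With median scaling the split was 11 higher and 3 lower, and with cyclic loess 5 higher and 7 lower. Of the 8 higher members 6 were not detected on every control array, while all 6 lower ones were detected on all 10 arrays. All 14 are described below because they had the smallest p, so their sizes were selected on these data. Without background correction 9 of the 14 differences shrank by more than 1.5 times. Beside Zfp868, given below, they were then 0.83 for Zfp866, 1.17 for Zfp239, 0.71 for Zfp282, -0.65 for Zfp599, -0.37 for Zfp72, -0.39 for Zfp160, 0.46 for Zfp777 and 0.56 for Zfp979.

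**Figure D3:**
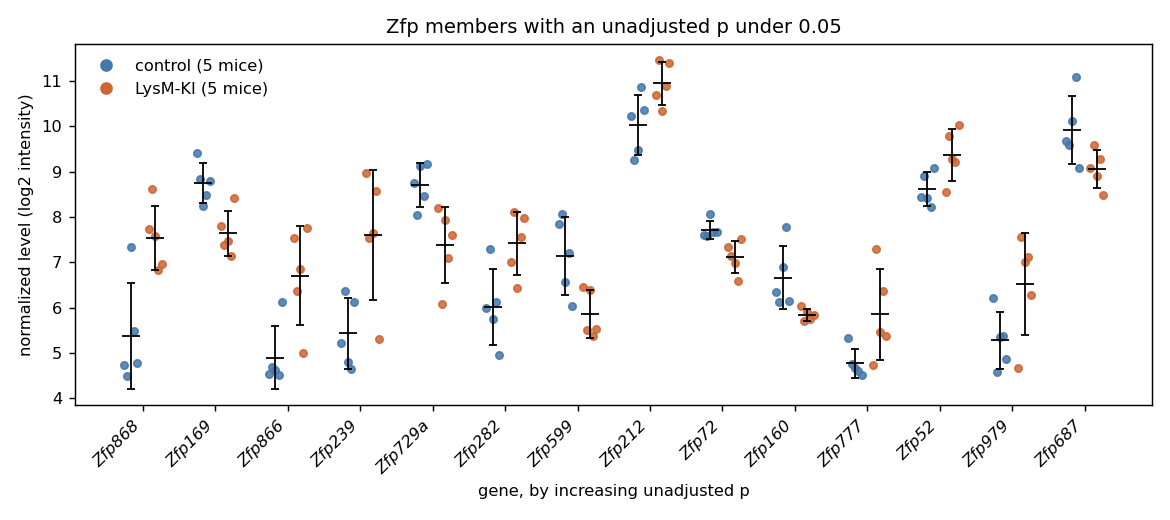
Normalized log2 intensity of the 14 Zfp members with an unadjusted p under 0.05 in each mouse (points), with the mean and SD of each group of 5 (black). Zfp72 and Zfp160 are the members whose groups do not overlap, and the other 12 share part of their range.

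Zfp868, a zinc finger gene with no function assigned here, had the smallest p among the probes that stand for the members. Its normalized levels were 4.74, 4.48, 7.35, 5.49 and 4.79 in control mice 1 to 5 and 7.72, 8.61, 7.58, 6.84 and 6.97 in LysM-KI mice 1 to 5. All but 1 control mouse lay below all LysM-KI mice, control 3 being inside their range. The log2 difference was 2.17 (SE 0.55, n = 5 per group), a 4.51-fold difference, with a limma adjusted p of 0.650. Detection was on 2 control and 5 LysM-KI arrays, so most control values are not told apart from background. Without background correction the log2 difference of Zfp868 was 1.05.

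Zfp866 lies in the same cluster on chromosome 8 as Zfp868. Its levels were 4.53, 4.69, 4.62, 4.51 and 6.12 in control and 7.54, 6.38, 6.86, 5.00 and 7.75 in LysM-KI mice. Control 5 and LysM-KI 4 made the groups overlap. Here the log2 difference was 1.81 (SE 0.53) and the adjusted p 0.709 in limma, with detection on 1 control and 4 LysM-KI arrays. The other detected members of this cluster, Zfp930 and Zfp869, were detected on all 10 arrays. They had log2 differences of -0.37 (SE 0.46) and -0.05 (SE 0.39), and Zfp869 starts between Zfp868 and Zfp866. The sign of Zfp869 turned under 9 of the alternatives.

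Zfp239 had levels of 4.65 to 6.37 in control mice and 8.98, 7.53, 7.64, 8.58 and 5.30 in LysM-KI mice. LysM-KI 5 fell among the controls, and the other 4 LysM-KI mice lay above all of them. Its log2 difference was 2.17 (SE 0.64, limma adjusted p = 0.724), and its second detected probe gave 0.52. The brightest probe of Zfp239 was detected on 3 control and 5 LysM-KI arrays. Zfp979 had a difference of 1.25 (SE 0.52), with levels from 4.58 to 6.21 in control and from 4.67 to 7.55 in LysM-KI mice, and detection on 2 and 4 arrays. Zfp52, detected on all 10 arrays, had a difference of 0.76 (SE 0.32), and its other detected probe gave -0.43.

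Among the lower members, Zfp169 had levels of 9.41, 8.85, 8.23, 8.50 and 8.80 in control and 7.81, 7.39, 7.47, 7.14 and 8.42 in LysM-KI mice. Only LysM-KI 5 reached into the control range. The log2 difference was -1.11 (SE 0.31, n = 5 per group), with a limma adjusted p of 0.650. Zfp729a ran from 8.03 to 9.18 in control and from 6.09 to 8.21 in LysM-KI mice, a difference of -1.32 (SE 0.41), and its second probe gave -1.44. Zfp729a has a near copy in the same cluster, so its signal may be shared. Zfp599 ran from 6.03 to 8.06 and from 5.37 to 6.46, a difference of -1.29 (SE 0.42). For both Zfp729a and Zfp599, 5 of 5 LysM-KI mice lay under the mean of the controls.

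The groups did not overlap for 2 members, both lower in LysM-KI cells (0.966% of members, beside 0.36% of all genes), and for 0 members that were higher (beside 0.618%). Zfp72 had levels of 7.60, 7.57, 8.07, 7.67 and 7.67 in control and 7.35, 7.13, 6.99, 6.59 and 7.51 in LysM-KI mice. The gap between the lowest control and the highest LysM-KI mouse was narrow, and the log2 difference was -0.60 (SE 0.24, limma adjusted p = 0.881). Zfp160 had levels of 6.35, 6.13, 6.89, 7.78 and 6.16 in control and 6.03, 5.70, 5.91, 5.75 and 5.84 in LysM-KI mice. LysM-KI values were tightly grouped, and control 4 stood highest. The log2 difference of Zfp160 was -0.82 (SE 0.33) and was -0.54 without control 4. Zfp687, which in human cells forms a complex with the bromodomain protein ZMYND8, ran from 9.09 to 11.09 in control and from 8.48 to 9.59 in LysM-KI mice. Its difference was -0.85 (SE 0.37), and -0.55 without control 4, whose level of 11.09 was the highest.

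Members lie close together in the genome. In the RefSeq gene table of GRCm38.p6, chromosomes 7, 13 and 17 held 48, 25 and 25 members, or 23.2%, 12.1% and 12.1%, against 7.22%, 4.17% and 5.19% of all genes detected. When Zfp genes on the array less than 500 kb apart were joined into runs, 15 runs held 3 or more members each and 93 members in all (44.9%). The median log2 difference of a run lay between -0.42 and 0.88. In the 2 longest runs, with 13 members on chromosome 13 and 10 on chromosome 17, the medians were 0.05 and 0.06 and members went both ways. Zfp160 at -0.82 and Zfp52 at 0.76 lie in the same run on chromosome 17.

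**Figure D4:**
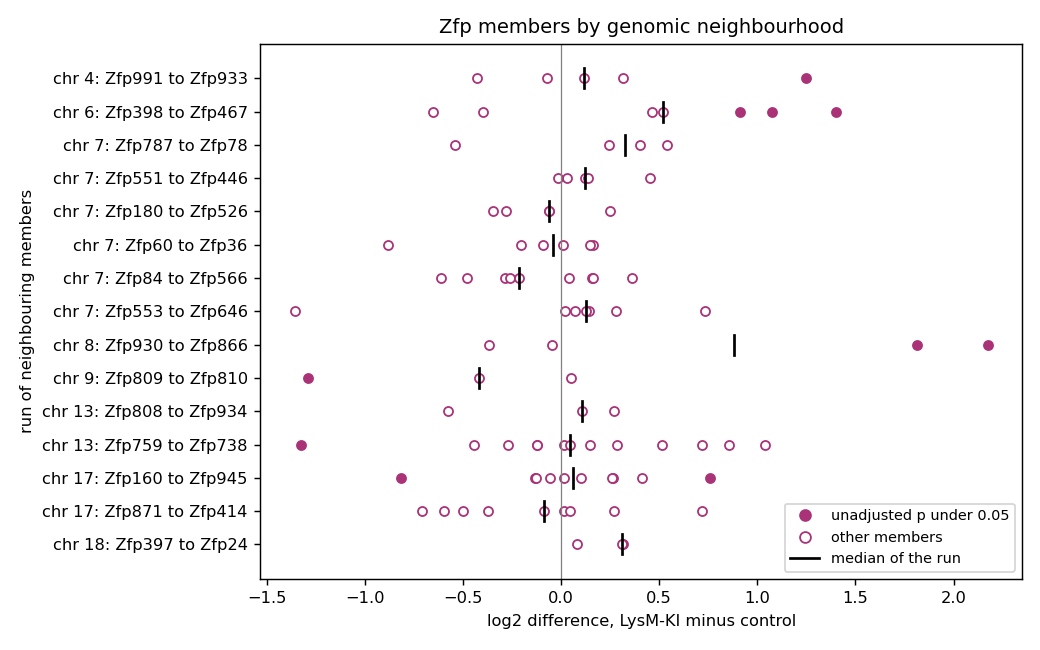
Log2 difference, LysM-KI minus control, of the 93 members in the 15 runs of neighbouring Zfp genes, 1 row for each run named by its first and last member. Filled points have an unadjusted p under 0.05 and the black bar is the median, which is 0.52 in the run on chromosome 6 and 0.88 in the run on chromosome 8.

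The run on chromosome 6 held 3 of the 14 members named above, Zfp282, Zfp212 and Zfp777, with 4 further members, and was singled out after its values had been seen. Zfp282, whose human counterpart was found as a repressor that binds a retroviral promoter element, had levels of 5.99, 7.29, 5.75, 6.11 and 4.95 in control and 7.02, 8.11, 6.43, 7.57 and 7.98 in LysM-KI mice. Each LysM-KI mouse lay above the control mean, with control 2 inside their range. Its log2 difference was 1.40 (SE 0.45, limma adjusted p = 0.819). Zfp212 had levels of 10.23, 9.27, 9.47, 10.87 and 10.37 in control and 10.70, 11.46, 10.34, 10.88 and 11.40 in LysM-KI mice. The ranges met between 10.34 and 10.87, the difference was 0.91 (SE 0.36), and the second probe of Zfp212 gave -0.15. Zfp777 had levels of 5.33, 4.75, 4.67, 4.60 and 4.52 in control and 4.74, 7.30, 5.47, 6.37 and 5.37 in LysM-KI mice. Here the LysM-KI mice were spread widely, LysM-KI 1 lying among the controls. Detection of Zfp777 was on 1 control and 4 LysM-KI arrays, so most control values are not told apart from background. The difference of Zfp777 was 1.08 (SE 0.44), or 0.71 without LysM-KI 2, and its second probe gave -0.39.

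The other members of that run did not share one direction. Zfp467, a regulator of the choice between fat and bone cells, was not above background on any control array and was detected on all 5 LysM-KI arrays. Its LysM-KI mean was 5.43 and its control mean 4.97, with a limma adjusted p of 0.933. The 95% interval of the log2 difference ran from -0.01 to 0.94 and so includes no difference. The groups overlapped, control 4 at 5.30 lying above LysM-KI 4 at 5.12. Detection on LysM-KI arrays alone made Zfp467 a member. Taking the means without their spread between mice, the bound on LysM-KI over control cells came out at 1.13-fold. The same detection pattern chose Zfp467, so this bound lends no support to a difference. Such a bound sets the bright group's mean against the lowest signal of any detected probe on each dim array, or the probe's own signal where that is higher. Zfp398 had a difference of 0.52 (SE 0.83), but of -0.21 without control 4 and 0.19 without control 5. In control 4 its level was 4.85 against 6.45 to 9.92 in the other controls. Zfp746 (PARIS), a repressor degraded through parkin, had a difference of -0.40 (SE 0.30), and Zfp956 one of -0.65 (SE 0.42). The levels of Zfp956 in LysM-KI mice, 7.66 to 7.99, lay inside those in control mice, 6.77 to 9.20.

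The promoters of these neighbours are shown so that members with like and opposite differences can be read side by side. RefSeq promoter sequence was given for 171 of the 207 members, of which the 250 bases before the first listed start were read. The sequences below are from GRCm38.p6, written 5′ to 3′ on the strand of the gene. They are for the 3 members of the chromosome 6 run with a small p and for Zfp956 beside them, which had the opposite sign. Zfp868 and Zfp866 of the chromosome 8 cluster are also shown. Capitals mark the GC box GGGCGG and the CCAAT box on either strand (CCGCCC and ATTGG on the other), and overlapping matches are joined.
Zfp282, chr6:47877305-47877554, + strand: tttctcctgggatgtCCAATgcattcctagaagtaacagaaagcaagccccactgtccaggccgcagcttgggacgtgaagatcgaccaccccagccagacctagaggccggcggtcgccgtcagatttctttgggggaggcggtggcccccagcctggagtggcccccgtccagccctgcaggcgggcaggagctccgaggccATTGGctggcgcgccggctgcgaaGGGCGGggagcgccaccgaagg
Zfp212, chr6:47920318-47920567, + strand: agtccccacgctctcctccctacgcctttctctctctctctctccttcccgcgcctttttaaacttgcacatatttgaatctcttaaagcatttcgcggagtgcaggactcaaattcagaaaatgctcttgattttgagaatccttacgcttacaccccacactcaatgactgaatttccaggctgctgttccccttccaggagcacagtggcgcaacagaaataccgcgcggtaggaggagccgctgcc
Zfp777, chr6:48047795-48048044, - strand: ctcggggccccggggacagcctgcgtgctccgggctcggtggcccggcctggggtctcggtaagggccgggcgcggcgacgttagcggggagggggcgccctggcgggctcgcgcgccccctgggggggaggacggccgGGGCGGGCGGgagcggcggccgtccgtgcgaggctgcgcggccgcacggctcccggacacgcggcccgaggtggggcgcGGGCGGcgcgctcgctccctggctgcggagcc
Zfp956, chr6:47953140-47953389, + strand: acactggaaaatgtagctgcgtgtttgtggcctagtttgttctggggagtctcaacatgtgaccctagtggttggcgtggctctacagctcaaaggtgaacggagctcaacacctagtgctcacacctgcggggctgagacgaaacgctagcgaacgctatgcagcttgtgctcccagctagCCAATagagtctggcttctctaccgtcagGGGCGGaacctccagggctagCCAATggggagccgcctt
Zfp868, chr8:69625549-69625798, - strand: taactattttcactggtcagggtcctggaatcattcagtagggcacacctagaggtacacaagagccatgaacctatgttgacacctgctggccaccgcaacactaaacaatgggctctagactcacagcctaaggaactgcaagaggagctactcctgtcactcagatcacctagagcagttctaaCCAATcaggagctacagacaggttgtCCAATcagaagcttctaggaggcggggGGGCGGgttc
Zfp866, chr8:69774912-69775161, - strand: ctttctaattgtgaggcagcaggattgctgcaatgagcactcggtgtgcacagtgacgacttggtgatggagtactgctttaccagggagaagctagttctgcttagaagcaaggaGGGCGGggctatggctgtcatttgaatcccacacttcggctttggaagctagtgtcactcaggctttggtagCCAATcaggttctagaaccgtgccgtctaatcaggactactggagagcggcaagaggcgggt

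The window of Zfp777 was the richest in G and C, at 84.0%, with 42 CpG dinucleotides and 3 GC box matches. That of Zfp212 held 12 CpG and 0 matches to either box. The windows of Zfp282 and Zfp956, whose differences had opposite signs, held the same boxes, 1 GC box and 2 CCAAT boxes each, and so did that of Zfp868. Zfp866 had 1 of each. Over all members with a window, 46.2% held a GC box, beside 42.6% of 17321 other protein-coding genes, and 49.7% held a CCAAT box, beside 36.2%. TATAAA or its complement was in 7.02% of member windows and 12.4% of the others. The other genes were taken whether or not they were detected in LSK cells, whereas all members were detected, so the sets differ in more than family. These matches are letters in a window and carry no information on binding.

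Probes of the same gene often disagreed. Several probes were detected for 80 members, and for 46 of these (57.5%) all detected probes had the same sign. Among genes with exactly 2 detected probes, the share was 61.7% of 60 Zfp members, close to 59.6% of 2198 genes of all kinds. The median distance between the 2 log2 differences was 0.29 for Zfp members and 0.34 for all. Zfp608, a repressor of Rag gene expression in thymocytes, spanned the widest range. Its brightest probe, detected on all 10 arrays, gave -0.20 (SE 0.29). Another gave 1.49 (SE 0.45), with 5.17 to 6.90 in control and 6.67 to 8.99 in LysM-KI mice. The remaining detected probes of Zfp608 gave 0.18 and 0.16. For Zfp410, the activator of Chd4, the brightest probe gave 1.31 (SE 0.74) and the 3 others between -0.34 and -0.10.

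All 3 detected probes of Zfp672 had the same sign, with log2 differences of 1.73, 1.12 and 0.43. The first of these had an SE of 0.26 and a 95% interval from 1.15 to 2.30, but was not the brightest. The probe with 1.73 had levels of 4.62, 4.91, 4.89, 4.70 and 5.25 in control mice and 6.40, 7.23, 6.86, 6.18 and 6.32 in LysM-KI mice. These groups are well apart, but all but 1 control value were below the detection limit. The brightest probe had levels of 6.95, 7.12, 8.26, 4.60 and 6.60 in control and 7.04, 7.68, 7.37, 7.84 and 9.17 in LysM-KI mice. On it control 3 lay above 4 of the LysM-KI mice, control 4 was at background, and the 95% interval of the difference ran from -0.25 to 2.48. Without control 4 the difference on this probe was 0.59. The third probe gave 5.33, 4.87, 5.73, 7.47 and 4.68 against 7.04, 6.15, 5.82, 5.28 and 5.95, where control 4 was the highest of all 10 arrays. Control 4 was thus the lowest array on one probe of Zfp672 and the highest on another.

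**Figure D5:**
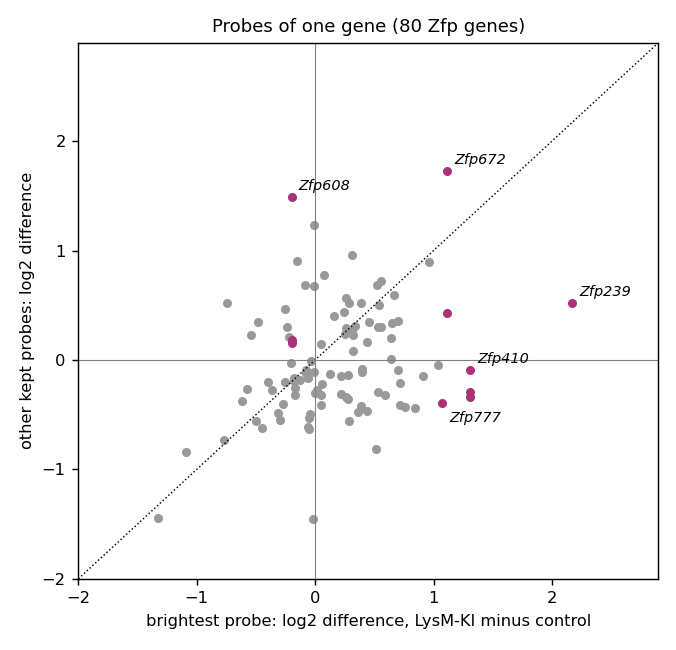
Log2 difference, LysM-KI minus control, of the brightest detected probe (x) against each other detected probe (y) of the 80 Zfp members with several detected probes, with the line of equality dotted. Of the 5 genes named, Zfp672 and Zfp239 have all probes above 0, whereas Zfp608, Zfp410 and Zfp777 have probes of both signs.

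Members with a known role were described next, from a list of 39 names of which 34 genes had a probe and 26 were members. Of these 26, 18 had a difference above 0 and 8 below, the range was -0.85 to 0.96, and 1, Zfp687, had an unadjusted p under 0.05 (3.85%, beside 5.04% of all genes). Zfp36 (tristetraprolin) had levels of 9.65, 7.95, 9.57, 10.44 and 9.08 in control and 9.12, 8.64, 9.89, 10.35 and 9.43 in LysM-KI mice, and the LysM-KI values all lay inside the control range. The difference of Zfp36 was 0.15 with a 95% interval from -0.88 to 1.17. Zfp36l1, of the same kind, was steadier, between 8.94 and 9.68 in control and 9.26 and 9.83 in LysM-KI mice, with a difference of 0.05 and an interval from -0.46 to 0.56. Their relative Zfp36l2 was detected on 1 array only.

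Zfp638 (NP220), which silences unintegrated retroviral DNA, had a difference of 0.56 (SE 0.30), with 5 of 5 LysM-KI mice over the mean of the controls, and its 3 detected probes shared the sign. Zfp207 (BuGZ), which loads the checkpoint protein Bub3 onto the spindle, had levels of 5.38 to 8.17 in control and 7.34 to 7.80 in LysM-KI mice, a difference of 0.53 (SE 0.47), or 0.14 without control 4. Zfp326, which links transcription to splicing, was at 0.22 (SE 0.41), and the RNA-binding Zfp106 at 0.96 (SE 0.61), or 0.47 without LysM-KI 2. Zfp622, related to a ribosome assembly factor of yeast, was detected on 1 control and 4 LysM-KI arrays and had a difference of 0.96 (SE 0.60), or 0.50 without LysM-KI 2. Zfp622 and Zfp106 were the highest of the 26 members of this list. Zfp830, needed for the survival of haematopoietic and embryonic cells in mice, was at -0.45 (SE 0.58), at 0.03 without control 3 and at -0.29 without LysM-KI 1.

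Transcription regulators of this list also overlapped between groups. Zfp281, a regulator of pluripotency in embryonic stem cells, had levels of 7.43 to 9.31 in control and 8.61 to 9.58 in LysM-KI mice, a difference of 0.59 (SE 0.37), or 0.29 without control 4, and its second probe gave -0.32. Zfp384, whose human counterpart is rearranged in B cell leukaemia, was at 0.45 (SE 0.59), at 0.07 without control 4 and at 0.19 without LysM-KI 2. Zfp592, a partner of Zfp687, was at 0.91 (SE 0.93), with levels of 4.64 to 8.63 in control and 4.96 to 9.18 in LysM-KI mice. The difference of Zfp592 was between 0.45 and 0.53 without control 4, LysM-KI 3 or LysM-KI 4. Zfp318, needed for IgD expression in B cells, was at 0.19 (SE 0.49). Zfp91, a ubiquitin ligase of NF-kB signalling, was at -0.33 (SE 0.51), its highest level being 10.03 in LysM-KI 2. Zfp568, a KRAB protein that represses a placental Igf2 transcript, was at -0.26 (SE 0.29). The KRAB proteins Zfp809, which silences murine leukaemia virus, and Zfp445, a regulator of imprinted loci, had means of 7.66 ± 0.82 and 9.05 ± 0.72 (SD, n = 5) in control and 7.71 ± 0.52 and 9.10 ± 0.92 in LysM-KI cells. The remaining members of the list overlapped between groups as well. Zfp1 stood at 6.41 ± 0.58 in control and 6.63 ± 0.85 in LysM-KI cells. Zfp131 stood at 9.62 ± 0.62 in control and 9.65 ± 0.64 in LysM-KI cells. Zfp148 stood at 7.14 ± 0.55 in control and 7.21 ± 1.25 in LysM-KI cells. On these brightest probes the differences are smaller than the SD of either group, but the second probe of Zfp148, detected on all 10 arrays, gave 0.77 with a 95% interval from 0.01 to 1.54. Zfp609, a relative of Zfp608, stood at 6.01 ± 0.73 in control and 5.86 ± 0.37 in LysM-KI cells. Zfp644 stood at 9.01 ± 0.83 in control and 8.86 ± 0.37 in LysM-KI cells. The second probe of Zfp644 gave a difference of 0.90. Zfp710 stood at 5.56 ± 0.45 in control and 5.77 ± 0.59 in LysM-KI cells.

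A few arrays stood far from the rest for some members. Zfp692, Zfp398, Zfp90 and Zfp286 had the largest SD over control mice, 2.32, 2.06, 1.99 and 1.96. Zfp90 had levels of 9.43, 9.15, 9.26 and 9.08 in 4 control mice and 4.79, at background, in control 4, and 8.93, 7.34, 9.58, 9.21 and 9.24 in LysM-KI mice. Its log2 difference was 0.52 (SE 0.85), and it was -0.37 without control 4 and 0.34 without LysM-KI 3. Zfp692 had levels of 4.54, 9.13, 8.48, 4.60 and 4.62 in control mice, where detected and undetected arrays were far apart, and 5.54 to 8.37 in LysM-KI mice, a difference of 0.70 (SE 1.00). Without control 1, control 4, control 5 or LysM-KI 4 the difference of Zfp692 was between 0.27 and 0.35. Zfp286 reached 9.30 in control 3 and 9.00 in LysM-KI 1, with 4.74 to 6.91 elsewhere, and its difference was 0.44 (SE 0.99). It was 0.13 to 0.16 without control 2, 4 or 5 and -0.21 without LysM-KI 1.

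The probes that were brightest on control arrays belonged to Zfp607a, Zfp987, Zfp639, Zfp512, Zfp691, Zfp825, Zfp212 and Zfp574, with control means from 10.00 to 11.19. Brightness depends on the probe as well as on the transcript, so this is no order of expression. Zfp987 stood at 11.08 ± 0.23 (SD, n = 5) in control and 11.05 ± 0.14 in LysM-KI cells, and Zfp512 at 10.86 ± 0.24 and 10.85 ± 0.21, although its second probe gave a difference of -1.45. Zfp639 stood at 10.99 ± 0.47 and 11.32 ± 0.20.

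Most genes of a list of KRAB corepressors and wider chromatin genes, such as Dnmt1, Uhrf1, Atrx and Daxx, were detected. Of 37 genes of this list on the array 34 were detected, 28 of them on all 10 arrays (82.4%, beside 62.1% of all genes). None passed the adjusted threshold in limma, 2 had an unadjusted p under 0.05 (5.88%, beside 5.04% of all genes), and the median difference was 0.07 with 22 of 34 above 0. Trim28 had levels of 8.93 ± 0.44 (SD, n = 5) in control and 9.06 ± 0.37 in LysM-KI cells, a difference of 0.12 (SE 0.28). Setdb1 stood at 5.74 ± 0.21 and 5.96 ± 1.03, a difference of 0.22 (SE 0.44), and was detected on 5 control and 4 LysM-KI arrays. The 2 genes with a small p were lower: Mta3, a NuRD subunit, at -1.45 (SE 0.56) and Atf7ip, the partner that stabilises Setdb1, at -0.84 (SE 0.35), both with a limma adjusted p of 0.881. The second probe gave -0.44 for Mta3 and -0.39 for Atf7ip. Under the mean of the controls lay 5 of 5 LysM-KI mice for Atf7ip and 4 of 5 for Mta3. The H3K9 methyltransferase Suv39h2 was at 0.83 (SE 0.48), but its second probe gave -1.19. The CoREST subunit Rcor1 was at 0.39 (SE 0.25) with -0.21 on its second probe, and the methyl-CpG binding Mbd2 at 0.87 (SE 0.57) with 0.31 on its second. The NuRD helicase Chd3, detected on 7 arrays, was at -0.49 (SE 0.38), or -0.16 without control 3.

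Other zinc finger families were set beside the Zfp members as a description. Of 29 detected Zbtb genes 0 had an unadjusted p under 0.05 in limma, with a median log2 difference of -0.01, of 11 Zscan and Zkscan genes 2 had one, with a median of 0.14, and of 15 Klf and Sp genes 0 had one, with a median of -0.12. These are 0%, 18.2% and 0% of the 3 families, beside 5.04% of all genes. Fewer LysM-KI than control arrays detected 9.18% of Zfp members and 7.98% of all genes, and more LysM-KI than control arrays detected 34.8% and 23.8%. For Zbtb, for Zscan and Zkscan, and for Klf and Sp genes the shares were 3.45%, 9.09% and 13.3% for fewer. They were 27.6%, 18.2% and 20% for more. A gene detected on all 10 arrays can fall in neither class, and such genes were 47.3% of members but 62.1% of all genes. No test was made of the difference between families.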

How the data were processed

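Total RNA of sorted LSK cells was amplified with the WT-Ovation Pico system, per the labels' protocols. The authors deposited a linear probe intensity, not normalized, with a fraction between 0 and 1 for each of 45281 probes and 10 arrays. This fraction rose with the intensity of its own array (rank correlation at least 0.990), and 1 minus it therefore served as the detection p. The authors also deposited processed log2 values, which log2 of quantile-normalized intensity minus the probe median matched within 0.0131. The scanner and the bead summary are stated neither in the labels nor in the file headers. No genome build applies to the arrays; positions and promoters are RefSeq's.

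Intensities were background-corrected, quantile-normalized and put on the log2 scale with neqc of limma 3.58.1 in R 4.3.3 (offset 16, which pulls dim probes' differences toward 0). The 17245 probes detected on at least 5 of 10 arrays were tested with limma's moderated test, two-sided, 5 against 5 mice, with Benjamini-Hochberg adjustment over these probes and a threshold of 0.05. Standard errors and 95% intervals use 11.1 degrees of freedom. Symbols from the platform annotation were updated through RefSeq, and 0 members changed symbol. The number of arrays limits the precision. On simulated data with the real means and spreads, 200 of 17245 probes were changed by 2 or by 3 on the log2 scale. Limma recovered 56.0% of those changed by 2 and 86.0% of those changed by 3, with 8 false calls each time. Recovery with fewer changed probes was not examined. The median SE in the real data was 0.44 for members and 0.39 for all genes. No 2 arrays were near copies (smallest mean absolute log2 difference 0.513). Replicate numbers occur in both groups, but nothing says that they pair mice, and deviations of same-numbered arrays correlated at -0.03 to 0.06, so no block was used.

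Genes named were the 14 Zfp members with the smallest unadjusted p, the 8 with the brightest probes and the 4 with the largest SD on control arrays, the 4 with the widest range between probes, Zfp672, members of a list of known roles, 4 just inside and 4 just outside the detection threshold, and up to 6 corepressor genes by p with Trim28 and Setdb1. Those named outside this rule, Zfp521, Zfp36l2, Zfp553, Zfp930, Zfp869, Zfp956 and the X-linked members, were chosen after their values were seen. The members, lists and rules were chosen with earlier results of these data known.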

Additional observations from a re-analysis of the deposited data

Results flagged for a closer look

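Of 132 groups of 5 arrays examined for the genes and counts above, 10 had 1 array far from the other 4, measured as its gap to the nearest array over the range of the group. For normally distributed values chance gives about 1 in 20. Many of these genes were chosen by their values on these arrays and some lie near background, so that rate need not hold for them. Control 4 was at 4.79 for Zfp90 against 9.08 to 9.43 in the other control mice, and LysM-KI 2 at 7.34 against 8.93 to 9.58. Control 5 was at 6.12 for Zfp866 against 4.51 to 4.69. Control 2 was at 6.54 for Zfp622 against 4.42 to 4.64, and control 1 at 5.33 for Zfp777 against 4.52 to 4.75. Control 3 was at 8.07 for Zfp72 against 7.57 to 7.67. LysM-KI 4 was at 8.0 for Zfp553 against 4.86 to 5.65 and at 6.78 for Zfp710 against 5.34 to 5.70, and LysM-KI 2 was at 7.48 for Zfp445 against 9.39 to 9.72. For Atf7ip control 3 was at 8.21 against 9.14 to 9.47. Zfp866, Zfp622 and Zfp777 were each detected on 1 control array.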

How the results depend on the processing

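The alternatives were no background correction, the authors' processed values, an offset of 50, cyclic loess, median scaling, no filter on dim probes, detection on all 10 arrays, the replicate block, array weights, 1 or 2 arrays left out, and, for Zfp genes, the mean over probes or the brightest probe by log2 level. The counts past the adjusted threshold were 0 for all probes, Zfp members and corepressor genes under each alternative run, with a smallest adjusted p of a member of 0.320. The count of members at an unadjusted p under 0.05 was 10 to 20 with 1 array left out and 13 with the replicate block. It was 8 of 98 when only probes detected on all 10 arrays were tested, 2 higher and 6 lower, with fewer genes tested. In the main fit limma's unadjusted p was under 0.05 for 8.16% of these 98 members, beside 4.47% of the 5523 genes so detected. Median scaling gave 11 higher and 3 lower members, and cyclic loess 5 higher and 7 lower. Median scaling moved the members' median difference to 0.17 and that of all probes to 0.13, and cyclic loess turned it to -0.02. Leaving out 1 array gave medians of 0.02 to 0.11. All 14 differences kept their sign under every setting run on the same probes, as did those of 94 of the 207 members, but 9 of 14 shrank by more than 1.5 times without background correction. The replicate block changed no call.
Signs turned for 27 of the 64 genes named with values, and the cause was not tested. With 1 array left out, Setdb1 ran from -0.22 to 0.43, Trim28 ran from -0.0285 to 0.27, Zfp131 ran from -0.16 to 0.20, Zfp148 ran from -0.25 to 0.45, Zfp280c ran from -0.067 to 0.59, Zfp286 ran from -0.21 to 1.27, Zfp318 ran from -0.23 to 0.56, Zfp326 ran from -0.14 to 0.50, Zfp36 ran from -0.20 to 0.42, Zfp36l1 ran from -0.073 to 0.11, Zfp398 ran from -0.21 to 1.06, Zfp445 ran from -0.24 to 0.46, Zfp512 ran from -0.11 to 0.065, Zfp609 ran from -0.34 to 0.070, Zfp644 ran from -0.33 to 0.19, Zfp710 ran from -0.046 to 0.39, Zfp809 ran from -0.18 to 0.36, Zfp830 ran from -0.87 to 0.032, Zfp869 ran from -0.32 to 0.20, Zfp90 ran from -0.37 to 0.90 and Zfp987 ran from -0.11 to 0.028. Without control 4 and LysM-KI 4, Zfp398 was at -0.11, Zfp869 was at 0.18, Zfp608 was at 0.046, Zfp692 was at -0.067, Zfp90 was at -0.45, Zfp91 was at 0.033, Zfp131 was at -0.027, Zfp445 was at -0.33, Zfp609 was at 0.19, Zfp644 was at 0.15 and Zfp512 was at 0.067. Without control 4 and LysM-KI 2, Zfp398 was at -0.079, Zfp930 was at 0.012, Zfp869 was at 0.33, Zfp384 was at -0.19, Zfp131 was at -0.35, Zfp148 was at -0.14, Zfp644 was at 0.32 and Zfp512 was at 0.0084. With mean over all kept probes of a gene, Zfp398 was at -0.15, Zfp608 was at 0.41, Zfp286 was at -0.013, Zfp326 was at -0.081, Zfp445 was at -0.18 and Zfp644 was at 0.38. With median scaling, Zfp869 was at 0.013, Zfp609 was at 0.046, Zfp987 was at 0.043 and Zfp512 was at 0.043. With array weights, Zfp869 was at 0.12, Zfp384 was at -0.043, Zfp131 was at -0.24, Zfp148 was at -0.18, Zfp644 was at 0.066 and Zfp809 was at -0.0201. With brightest probe by mean log2 level, Zfp410 was at -0.10. With cyclic loess, Zfp36l1 was at -0.038, Zfp131 was at -0.057, Zfp445 was at -0.034 and Zfp809 was at -0.023. Depth is not defined for arrays, and members undetected in 1 group are limited by background.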
